A study of Mus musculus with 24 samples.

Results

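The genes described here encode coat proteins of the lipid droplet and proteins that form or fuse it: the perilipins *Plin1*, *Plin2*, *Plin3* and *Plin4*, the CIDE proteins *Cidec* and *Cidea*, seipin (*Bscl2*) and *Fitm2*. They were chosen by name and make up 8 of the 26995 gene symbols in the deposited tables, each read from its 3′UTR entry with the highest mean total count. Their RNA was measured in 3T3-L1 cells, a mouse fibroblast line that becomes adipocytes under dexamethasone, 3-isobutyl-1-methylxanthine and insulin. Cells were kept in DMSO, the solvent control, or in 0.5 μM ML-792, an inhibitor of the SUMO activating enzyme, and collected on days −2, 1, 3 and 7 of differentiation. Day −2 precedes the induction, and insulin medium without the other agents was given from day 3. Each of the 8 conditions had 3 replicates named A, B and C, and neither the labels nor the methods for these cultures give how long ML-792 had been present at each harvest. All 24 cultures also received 100 μM 4-thiouridine for 45 min before harvest, so that RNA made in that time carries T-to-C conversions (SLAMseq) within the same 3′ end libraries (QuantSeq). Total reads therefore stand for the whole RNA pool and labelled reads, with at least 1 such conversion, for new RNA. No sample was without 4-thiouridine, so how many labelled reads arise without it, as from base errors, was not measured.

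Lipid droplets store triglyceride under a single layer of phospholipid, and the proteins bound to that surface control access to the store. PLIN1 is the perilipin of mature adipocytes and holds back lipolysis until it is phosphorylated, whereas PLIN2 coats droplets in nearly all cells, PLIN3 moves between cytosol and droplets, and PLIN4 coats nascent droplets in adipocytes. CIDEC (FSP27) and CIDEA sit where droplets touch and transfer lipid from the smaller to the larger one. Seipin and FITM2 are proteins of the endoplasmic reticulum that act when droplets bud.

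Start sites of 7 of the 8 genes were taken from the RefSeq promoter table of the mouse genome (build GRCm38.p6, the assembly of mm10). They made 10 windows, of which the 250 bases before the start were read. The promoter of *Cidea* was left out and was not searched. Sequences are shown for *Plin1* (chr7:79732777-79733026, minus strand) and *Cidec* (chr6:113435761-113436010, minus strand), whose RNA rose in the time course, for *Plin2* (chr4:86670060-86670309, minus strand), whose RNA was raised by ML-792, and for *Plin3* (chr17:56290512-56290761, minus strand), whose RNA fell. All are written 5′ to 3′, and capitals mark matches to TTNNGNAA, the pattern bound by C/EBP factors, or to AGGTCA, the hexamer read by nuclear receptors, on either strand.
Plin1: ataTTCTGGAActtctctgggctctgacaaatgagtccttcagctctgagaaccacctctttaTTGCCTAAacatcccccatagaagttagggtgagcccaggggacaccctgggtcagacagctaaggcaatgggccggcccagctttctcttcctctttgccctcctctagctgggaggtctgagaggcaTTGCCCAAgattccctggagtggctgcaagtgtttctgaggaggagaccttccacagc
Cidec: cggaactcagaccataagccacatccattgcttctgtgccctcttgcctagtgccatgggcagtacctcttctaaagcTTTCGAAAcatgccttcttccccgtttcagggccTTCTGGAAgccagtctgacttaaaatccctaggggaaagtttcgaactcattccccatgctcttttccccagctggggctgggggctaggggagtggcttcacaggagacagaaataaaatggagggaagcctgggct
Plin2: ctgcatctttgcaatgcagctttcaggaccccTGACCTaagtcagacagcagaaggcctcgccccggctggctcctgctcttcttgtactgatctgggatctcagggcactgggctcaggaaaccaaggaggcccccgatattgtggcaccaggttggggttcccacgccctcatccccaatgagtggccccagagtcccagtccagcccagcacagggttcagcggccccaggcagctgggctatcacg
Plin3: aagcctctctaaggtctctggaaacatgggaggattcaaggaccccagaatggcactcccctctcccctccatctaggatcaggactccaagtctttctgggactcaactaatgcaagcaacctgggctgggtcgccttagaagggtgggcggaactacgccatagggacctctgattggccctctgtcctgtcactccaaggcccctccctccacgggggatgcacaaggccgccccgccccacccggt

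TTNNGNAA was present in the windows of *Plin1* and in both windows of *Cidec*, which makes 3 of the 10 windows, against 36.8% of all 32851 windows of this length in the table. AGGTCA was present in those of *Plin2* and of 1 of the *Bscl2* start sites, 2 of 10 against 14.0% of all windows. Neither AGGTCANAGGTCA, the repeat read by PPARγ and RXR, which contains AGGTCA, nor TATAAA was present in the windows of these genes. They were present in 0.0335% and 12.4% of all windows. A match is a run of letters and does not show that a factor binds there.

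Library sizes, summed over all 3′UTR entries, were 13554718 to 27013352 total reads and 115709 to 820046 labelled reads. The labelled share of all reads in DMSO was 3.17% on day −2, 1.27% on day 1, 1.03% on day 3 and 1.03% on day 7, and in ML-792 it was 2.83%, 1.06%, 0.958% and 0.837%. The markers of the labelled cell type were present: the summed normalized reads of 9 adipocyte markers (*Adipoq*, *Fabp4* and others) were 22251 to 23885 per library on day −2 and 622710.3 to 689230.4 on day 7 in DMSO, and all 9 were called higher. Those of 8 pre-adipocyte markers were 392754 to 501398 and 25399 to 44812, and 7 were called lower. In ML-792 on day 7 the sums were 874415 to 920805 and 49646 to 65460.0. Among all tested entries, 32.7% were called on day 7 over day −2 in DMSO, in either direction. The adipocyte markers *Lep* and *Slc2a4* had 0 to 1 and 4 to 7 raw reads per library on day −2 in DMSO. They passed the filter on low counts through later libraries, where they are high, so their inclusion favoured a rise. Of 5 macrophage markers, *Ptprc* had 0 reads in all libraries, and *Adgre1* and *Itgam* had 0 to 8. The other 2 were read in DMSO: *Cd68* had 15 to 37 raw reads on day −2 and 51 to 121 on day 3, called higher. *Csf1r* had 29 to 75 on day −2 and 0 to 2 on day 7, called lower. Sums over the 5 markers were 47.2 to 74.9 on day 7 in DMSO and 31.7 to 51.6 in ML-792, and on day 3 in DMSO 62.3 to 153. In such bulk RNA, fewer cells that have differentiated and less RNA per cell cannot be told apart.

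Which coat genes changed as the cells differentiated was read from the 12 DMSO libraries, by edgeR's quasi-likelihood test with an adjusted p under 0.01. By day 7 a total of 7 of the 8 genes were higher than on day −2, where 32.7% of all tested entries were called in either direction, and only *Plin3* was lower, short of the threshold. The increases ran from 5.42-fold for *Plin2* to 557-fold for *Cidec*. On day 3, 7 genes were higher and *Plin3* was lower (30.8% of all entries called), and on day 1 only *Plin1*, *Cidec* and *Fitm2* had risen (13.7% called). The median log2 fold change over the 8 genes was 0.49, 2.81 and 4.26 on days 1, 3 and 7, against 0.019, 0.034 and -0.035 over all entries. Between days 1 and 3, 6 genes rose and 1 fell (18.9% of entries called), and between days 3 and 7 there were 5 that rose (8.66% called). *Cidea* passed the filter on low counts only through libraries of days 3 and 7, where it is high, so its inclusion was bound to give a difference. Without the libraries of letter A, the number of genes called was 0 on day 1, 4 for day 3 against day 1 and 1 for day 7 against day 3, and without those of letter C the last was 2. Here and below, leaving out a letter takes libraries from the test of every entry. The share of all entries called in those fits is not given, so such counts are no trait of the coat genes.

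**Figure D1:**
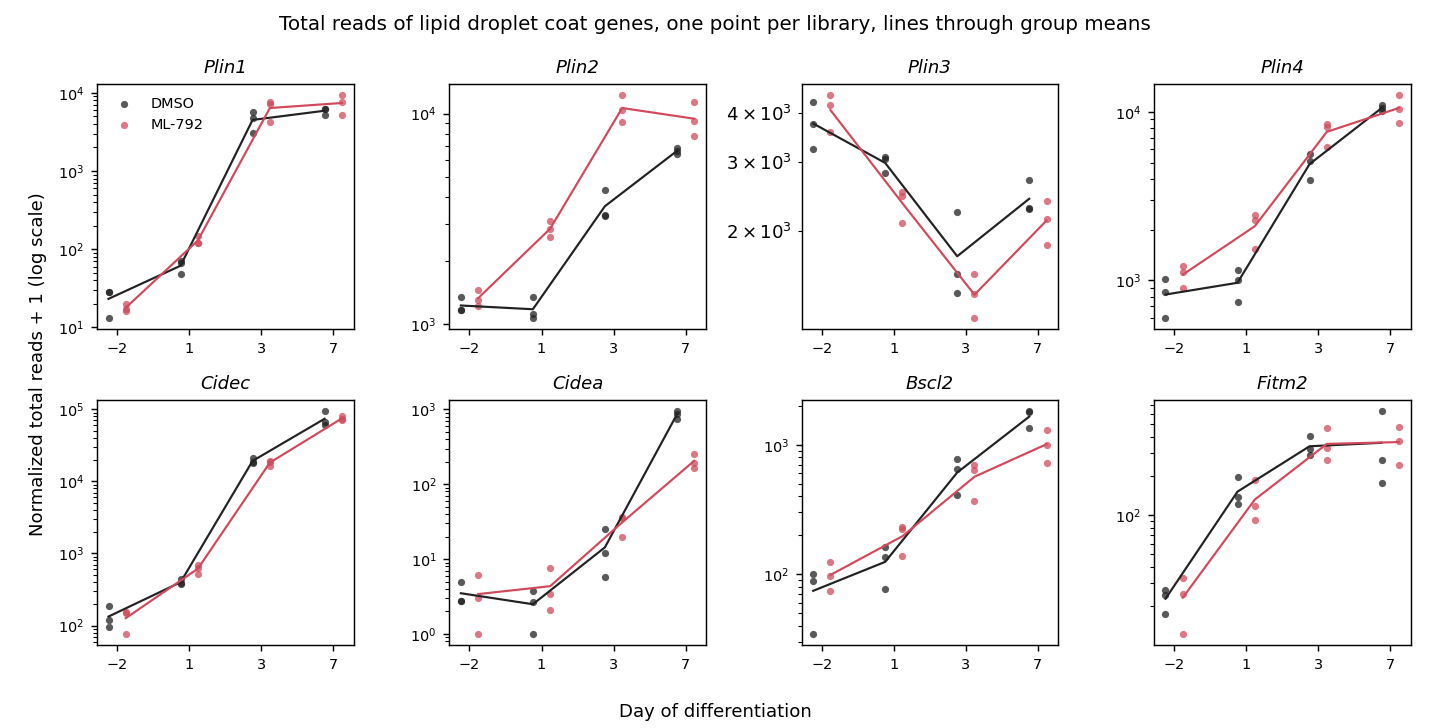
Normalized total reads plus 1 on a log axis against the day of differentiation for the 8 genes, with a point for each of 3 libraries per condition and lines through the group means, DMSO in black and ML-792 in red. *Plin1* went from 27.2, 27.3 and 12.2 on day −2 to 6294, 5179 and 6221 on day 7 in DMSO, *Plin3* had its lowest mean on day 3, and *Plin2* lay higher in ML-792 from day 1 on.

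*Plin1* (NM_175640.2, mm10 chr7:79721164-79721420, minus strand) encodes the adipocyte perilipin. Its normalized total reads in libraries A, B and C were 27.2, 27.3 and 12.2 on day −2 and 70.2, 46.8 and 64.8 on day 1. They were 4715, 3033 and 5758 on day 3 and 6294, 5179 and 6221 on day 7. The 3 libraries of day 1 lay above those of day −2 and far below those of day 3, while days 3 and 7 overlapped. Against day −2, *Plin1* was 2.71-fold higher on day 1 (log2 fold change 1.44, SE 0.31, adjusted p = 0.0035) and 263-fold higher on day 7 (log2 fold change 8.04, SE 0.35, adjusted p = 1.7e-10). The call on day 1 was lost without letter A (adjusted p = 0.067) or C (0.056). By far the largest step was from day 1 to day 3, 74.2-fold (log2 fold change 6.21, SE 0.32, adjusted p = 3.2e-09), and no further change was called by day 7 (adjusted p = 0.34).

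*Plin4* (XM_011246550.2, mm10 chr17:56100587-56102006, minus strand), which shares 19 bases at its end with *Hdgfl2* on the opposite strand, coats nascent droplets. Its normalized total reads were 854, 596 and 1019 on day −2, 1004, 741 and 1156 on day 1, 5109, 3920.3 and 5640.2 on day 3 and 10046, 11013 and 10462 on day 7. Days −2 and 1 overlapped, and each later day lay above the one before it. *Plin4* rose 5.06-fold from day 1 to day 3 (log2 fold change 2.34, SE 0.23, adjusted p = 1.5e-06) and 2.15-fold from day 3 to day 7 (log2 fold change 1.10, SE 0.22, adjusted p = 0.0025), to 12.8-fold over day −2. The last step was not called without letter A (adjusted p = 0.083) or C (0.020).

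*Plin2* (NM_007408.3, mm10 chr4:86656565-86657032, minus strand), the perilipin of most cell types, was already present before induction, with 1162, 1167 and 1352 normalized total reads on day −2 and 1069, 1118 and 1347 on day 1. It reached 3287, 3269.9 and 4340.5 on day 3 and 6878, 6443 and 6619.8 on day 7. Days −2 and 1 overlapped, whereas the later days were separate from them and from each other. *Plin2* rose 3.08-fold from day 1 to day 3 (log2 fold change 1.62, SE 0.17, adjusted p = 3.1e-06) and 1.83-fold from day 3 to day 7 (log2 fold change 0.87, SE 0.17, adjusted p = 0.0019). Without letter A the second step had an adjusted p of 0.13, and without letter C of 0.014. Its net rise by day 7, 5.42-fold, was the smallest among the 7 genes called higher.

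*Plin3* (NM_025836.3, mm10 chr17:56278962-56279731, minus strand), the perilipin that shuttles between cytosol and droplets, moved the other way. Its normalized total reads were 3749, 3238 and 4267 on day −2, 2801, 3082 and 3053 on day 1, 1558, 1388 and 2229 on day 3 and 2270.3, 2284 and 2691 on day 7. All 3 libraries of day 3 lay below all of days −2, 1 and 7. *Plin3* was 2.17-fold lower on day 3 than on day −2 (log2 fold change -1.12, SE 0.19, adjusted p = 1.9e-04) and 1.55-fold lower on day 7 (log2 fold change -0.64, SE 0.19, adjusted p = 0.012), the latter past the threshold with DESeq2 (adjusted p = 0.0057). The fall from day 1 to day 3 (log2 fold change -0.79, SE 0.19, adjusted p = 0.0050) was not called without letter A (adjusted p = 0.12) or B (0.010), nor was that from day −2 to day 3 without letter A (0.022). Between days 3 and 7 the groups did not overlap, but the difference was not called (adjusted p = 0.10).

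*Cidec* (XM_006505531.3, mm10 chr6:113424634-113425561, minus strand), the droplet fusion protein of white adipocytes, had 118, 184 and 95.8 normalized total reads on day −2 and 437, 385 and 373 on day 1. It had 18370.3, 18063 and 21184 on day 3 and 65659.9, 95534 and 60270.2 on day 7. Each day lay wholly above the one before it. The steps were 3.00-fold (log2 fold change 1.59, SE 0.24, adjusted p = 1.9e-04), 48.2-fold (log2 fold change 5.59, SE 0.28, adjusted p = 2.6e-09) and 3.84-fold (log2 fold change 1.94, SE 0.24, adjusted p = 4.4e-05). Without letter A the first had an adjusted p of 0.033 and the last of 0.010, which left both uncalled. On day 3 *Cidec* stood at 26.0% of its day 7 level, where *Plin1* stood at 76.3% of its own.

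*Cidea* (NM_007702.2, mm10 chr18:67367524-67367794, plus strand), a CIDE protein best known from brown fat, was scarce until the last interval. It had 5, 2 and 2 raw reads on day −2, 3, 0 and 2 on day 1, 10, 4 and 20 on day 3 and 657, 921 and 762 on day 7. The libraries of day 7 lay far above all others. From day 3 to day 7 *Cidea* rose 63.9-fold (log2 fold change 5.998, SE 0.44, adjusted p = 3.8e-07), and its day 3 level was 1.56% of that on day 7. Without letter C, which had the most reads on day 3, the log2 fold change was 6.72, and without letter B 5.51. Day 3 was also called above day −2 (log2 fold change 2.33, SE 0.62, adjusted p = 0.0068) and, by at least 4.99-fold against a floor of 3 reads per library, above day 1 (adjusted p = 0.0034). Neither held without letter A (adjusted p = 0.027 and 0.021) or C (0.20 and 0.094).

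*Bscl2* (NM_001136064.3, mm10 chr19:8848586-8848683, plus strand) encodes seipin. Its normalized total reads were 88.1, 33.5 and 98.4 on day −2, 135, 75.5 and 160.0 on day 1, 647, 409 and 769.6 on day 3 and 1779, 1333 and 1830.1 on day 7. Days −2 and 1 overlapped, and days 3 and 7 each lay above the day before. *Bscl2* rose 4.92-fold from day 1 to day 3 (log2 fold change 2.30, SE 0.36, adjusted p = 1.5e-04) and 2.71-fold from day 3 to day 7 (log2 fold change 1.44, SE 0.34, adjusted p = 0.0083). Both steps were no longer called without letter A (adjusted p = 0.012 and 0.14), the second also without letter C (0.049). Over the whole course it was 22.4-fold higher on day 7 (log2 fold change 4.49, SE 0.39, adjusted p = 1.7e-07).

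*Fitm2* (NM_173397.4, mm10 chr2:163468703-163469502, minus strand), which promotes droplet budding, was among the 3 genes that rose by day 1. Its normalized total reads were 23.2, 25.5 and 16.5 on day −2, 137, 194 and 119.5 on day 1, 321, 401 and 286 on day 3 and 265, 631 and 176 on day 7. Day 1 lay above day −2 and below day 3, and on day 7 library B stood far above A and C. *Fitm2* was 6.86-fold higher on day 1 (log2 fold change 2.78, SE 0.42, adjusted p = 1.9e-04) and 16.3-fold higher on day 7 (log2 fold change 4.03, SE 0.43, adjusted p = 1.8e-06). Without letter A the rise on day 1 missed the threshold (adjusted p = 0.013). Day 1 held 42.0% of the day 7 mean, against 1.03% for *Plin1* and 0.540% for *Cidec*. The difference between days 3 and 7 was within the spread (adjusted p = 0.90), and without letter B its log2 fold change turned to -0.46.

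The enzymes that fill and empty the droplet changed in the same interval. Against day −2, 13.7%, 30.8% and 32.7% of all entries were called in either direction on days 1, 3 and 7. Of 12 tested genes of triglyceride synthesis, 3 were higher on day 1, 8 on day 3 and 10 on day 7, with none lower. *Dgat2*, which adds the last fatty acid, had a log2 fold change of 8.27 on day 7 (adjusted p = 1.9e-11), followed by *Agpat9* (5.88, adjusted p = 1.3e-09) and *Agpat2* (5.53, adjusted p = 3.7e-10). Of 9 tested genes of lipolysis, 4, 9 and 9 were higher on days 1, 3 and 7. The lipase-related *Pnpla3* (9.17, adjusted p = 3.2e-11), the hormone-sensitive lipase *Lipe* (6.96, adjusted p = 5.5e-11) and *Adrb3*, the receptor that sets lipolysis off in fat (from 1 to 3 raw reads per library to 240 to 446, adjusted p = 1.0e-08), led the list by day 7. *Adrb3* passed the filter on low counts only through libraries of days 3 and 7, where it is high, so its inclusion favoured a difference. Other genes of the droplet surface were mixed: of 19 tested, 4 were higher and 5 lower on day 3, and 7 higher and 2 lower on day 7. Their largest changes on day 7 were *Adig* (9.15, adjusted p = 3.5e-11), *G0s2*, an inhibitor of the lipase ATGL (7.65, adjusted p = 1.2e-09), and *Hilpda* (1.71, adjusted p = 7.2e-06). The median log2 fold change on day 7 was 3.29 for triglyceride synthesis, 6.36 for lipolysis, 0.46 for the other surface genes and 4.26 for the 8 coat genes.

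New RNA was read from the labelled reads of the same DMSO libraries, scaled by the total library size. On day 3 *Plin1*, *Plin2*, *Plin4* and *Cidec* were called higher than on day −2, and on day 7 *Plin1*, *Plin4* and *Cidec*. Among all entries tested in labelled reads, 32.6% and 29.4% were called in either direction, with 1.87% and 1.75% higher and 30.8% and 27.7% lower. The labelled share of the libraries was lower after day −2, and the median entry had log2 fold changes of -1.23, -1.65 and -1.51 on days 1, 3 and 7. *Cidea* and *Fitm2*, with 7 and 44 labelled reads over the 24 libraries, were too sparse to test. The other 6 genes were tested, *Plin1* and *Cidec* only because days 3 and 7 lifted them over the filter. On day 1 none of the 6 was called by edgeR or by DESeq2 (18.5% of entries called), although 2, *Plin2* and *Plin4*, had an unadjusted p under 0.05 and were lower. From day 1 to day 3, *Plin1*, *Plin2*, *Plin4* and *Cidec* rose, where 3.03% of entries were called, 1.42% as higher and 1.61% as lower. From day 3 to day 7, where 0.246% were called, edgeR called none of the 6, 1 of them (*Cidec*) had an unadjusted p under 0.05, and DESeq2 called 1. Without the libraries of letter A there were 2 genes called on day 3.

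The labelled reads of *Cidec* in libraries A, B and C were 0, 4 and 0 on day −2, 5, 1 and 0 on day 1, 155, 111 and 138 on day 3 and 330, 464 and 313 on day 7. Days 3 and 7 did not overlap with each other or with the earlier days. The fitted log2 fold change over day −2 was 6.96 on day 3 (SE 0.62, adjusted p = 4.8e-13) and 8.32 on day 7 (SE 0.63, adjusted p = 1.8e-15), and both rest on 4 reads on day −2, all in library B. Without letter B they were 10.43 and 11.53 against a group at 0, and without letter A the first was 6.31. Between days 3 and 7 the difference was 1.37 (SE 0.41, adjusted p = 0.12 in edgeR and 0.0020 in DESeq2). *Plin1* had 1, 0 and 1 labelled reads on day −2, 2, 2 and 3 on day 1, 36, 20 and 42 on day 3 and 42, 26 and 23 on day 7. Its first groups were at or under the floor of 3 reads per library, so that *Plin1* was at least 14.9-fold higher on day 3 (adjusted p = 1.2e-07) and at least 13.1-fold higher on day 7 (adjusted p = 2.8e-07). Days 3 and 7 overlapped.

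The labelled reads of *Plin2* were 28, 26 and 21 on day −2, 7, 11 and 12 on day 1, 46, 54 and 52 on day 3 and 40, 48 and 59 on day 7. All libraries of day 1 lay below all others. The difference on day 1 was not called (log2 fold change -1.25, SE 0.50, adjusted p = 0.048), and with scaling by the labelled reads it was -0.27. The median entry had -1.23 on that day, so a fall particular to *Plin2* is not shown. The rise from day 1 to day 3 was 6.59-fold (log2 fold change 2.72, SE 0.49, adjusted p = 9.8e-05), with an adjusted p of 0.012 without letter A. Against day −2, day 3 was 2.78-fold higher (log2 fold change 1.47, SE 0.46, adjusted p = 0.0071), a call that was lost when any 1 letter was left out (adjusted p = 0.043, 0.013 and 0.087 without A, B and C). *Plin4* followed the same order, with 19, 7 and 14 labelled reads on day −2, 4, 3 and 3 on day 1, 40, 27 and 42 on day 3 and 37, 50 and 56 on day 7. Day 1 was again the lowest group with no overlap, at an adjusted p of 0.019 that missed the threshold. From there *Plin4* rose 13.7-fold to day 3 (log2 fold change 3.77, SE 0.61, adjusted p = 1.1e-05), and on day 7 it was 4.63-fold above day −2 (log2 fold change 2.21, SE 0.52, adjusted p = 5.8e-04). Without letter C the adjusted p on day 7 was 0.020, and on day 3 it was 0.021 without A and 0.045 without C.

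New RNA of *Plin3* and *Bscl2* was not called at any day. *Plin3* had 30, 28 and 38 labelled reads on day −2, 19, 17 and 19 on day 1, 4, 0 and 16 on day 3 and 15, 15 and 6 on day 7, with day −2 above all later libraries. Its log2 fold change was -0.73 on day 1 and -1.05 on day 7 (adjusted p = 0.36 and 0.17), and both turned positive, to 0.25 and 0.069, when labelled reads were scaled by themselves. On day 3 it was -1.78 (adjusted p = 0.028), and 0.0086 without letter C. *Bscl2* had 6, 3 and 14 labelled reads on day −2, 0, 9 and 7 on day 1, 2, 6 and 5 on day 3 and 10, 11 and 13 on day 7, so that day −2 overlapped with every later day. Its log2 fold change on day 3 was -0.35 and, with labelled reads scaled by themselves, 0.85. *Cidea* had 3, 1 and 1 labelled reads on day 7 and 0 in every earlier DMSO library, each of which allows up to 3. *Fitm2* had 2, 0 and 0 on day −2, 0, 0 and 0 on day 1, 5, 5 and 2 on day 3 and 5, 6 and 7 on day 7.

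**Figure D2:**
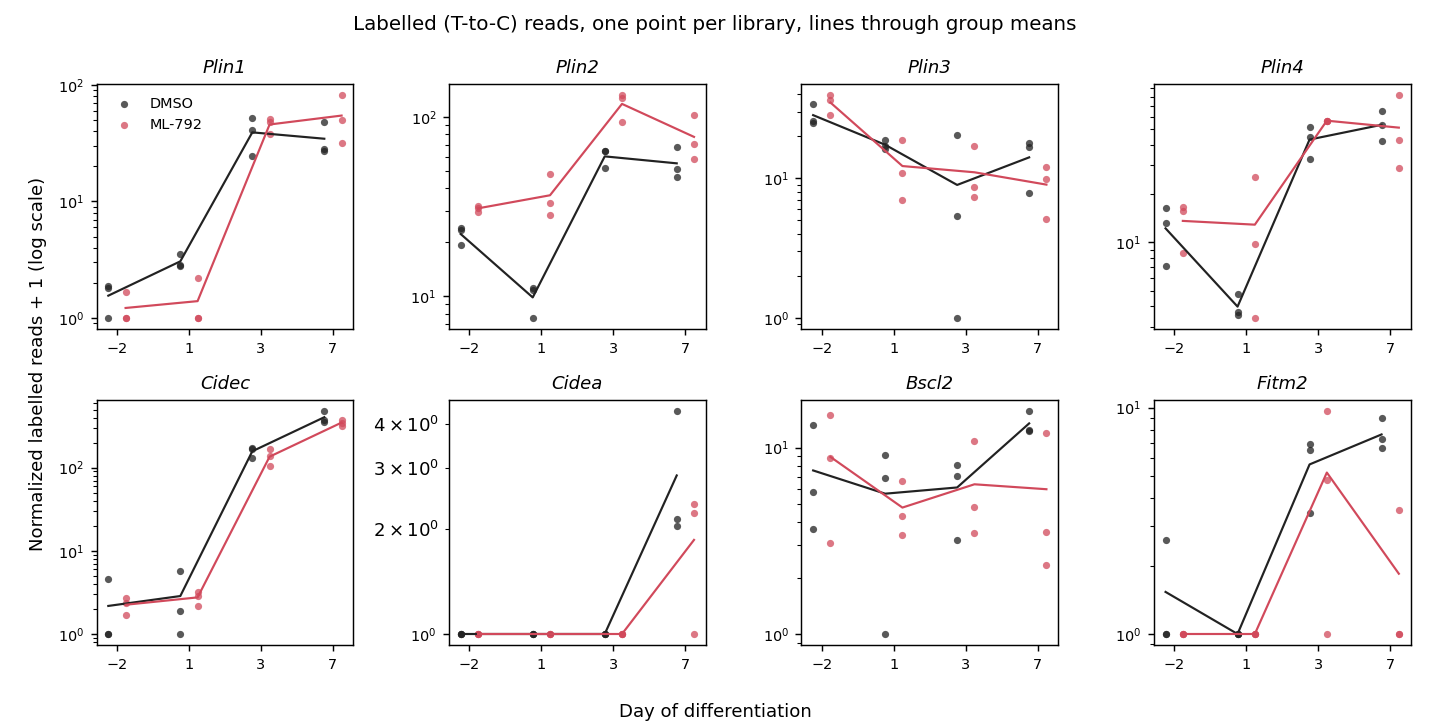
Normalized labelled reads plus 1 on a log axis against the day of differentiation for the 8 genes, with a point per library and lines through the group means, DMSO in black and ML-792 in red. *Plin1* and *Cidec* rose between days 1 and 3, *Plin2* and *Plin4* were lowest on day 1 in DMSO, and *Cidea* and *Fitm2* stayed under 10 labelled reads in every library.

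Whether a gene's labelled share moved apart from that of the library was tested with labelled and unlabelled reads side by side. The labelled share of *Plin2* was 1.75% ± 0.343 on day −2, 0.749% ± 0.136 on day 1, 1.65% ± 0.259 on day 3 and 0.814% ± 0.183 on day 7 (SD, n = 3). On day 3 it was within 1 SD of day −2 while the share of the libraries was lower, but at an adjusted p of 0.039 it was not called (difference 1.23 on the log2 scale, SE 0.35, edgeR). For *Bscl2* the share was 8.58% ± 3.52 on day −2 and 0.766% ± 0.119 on day 7 (SD, n = 3), with an adjusted p of 0.12, on counts of 3 to 14 labelled reads per library. None of the 6 genes was called by edgeR on day 1, 3 or 7, where 0.803%, 1.14% and 1.49% of all entries were. At an unadjusted p under 0.05 there were 1 (*Plin4*), 2 (*Bscl2* and *Plin2*) and 1 (*Bscl2*), and DESeq2 was not run on this design.

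The effect of ML-792 over DMSO was tested day by day, in 1 fit of all 24 libraries and at an adjusted p under 0.1, to ask which coat genes respond when sumoylation is blocked. It raised 3 of the 4 perilipins early and lowered *Cidea* late. On day 1 *Plin2*, *Plin4* and *Plin1* were higher in ML-792 (6.45% of all entries called), on day 3 *Plin2* and *Plin4* (13.0% called), and on day 7 *Plin2* was higher and *Cidea* lower (9.74% called). Before induction, on day −2, no gene was called by edgeR or DESeq2 and none had an unadjusted p under 0.05 (0% of entries called, with 346 entries at that p). The median log2 difference over the 8 genes was 0.88, 0.28 and 0.0093 on days 1, 3 and 7, against 0.015, 0 and 0.012 over all entries. The numbers called varied with the libraries used: without letter A they were 1, 1 and 1 on days 1, 3 and 7, without letter B 5, 3 and 4, and without letter C 2, 1 and 1. The interaction of day and treatment was called for *Plin2* (adjusted p = 3.5e-04) and *Cidea* (adjusted p = 0.0066), where 9.65% of entries were, and for 0 of the 8 genes without letter A and 4 without letter B. For these counts with a letter left out, the share of all entries called in the same fit is not given.

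Markers of the cell's stage also differed between the treatments, where 6.45%, 13.0% and 9.74% of all entries were called on days 1, 3 and 7. Of the 9 adipocyte markers, ML-792 had 1 higher and 0 lower on day 1, 1 and 4 on day 3 and 4 and 1 on day 7, with median log2 differences of 0.25, -0.44 and 0.52. Of the 8 pre-adipocyte markers, 2 were higher and 1 lower on day 1, 5 and 0 on day 3 and 4 and 1 on day 7, with medians of 0.051, 0.85 and 0.74. None of either list was called on day −2. The summed normalized total reads per library of the adipocyte markers on day 3 were 358753 to 502722 in DMSO and 389136 to 455869.7 in ML-792, and the pre-adipocyte markers 27622 to 36410.1 and 54116 to 69558. Their part in the results for the coat genes was not tested.

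**Figure D3:**
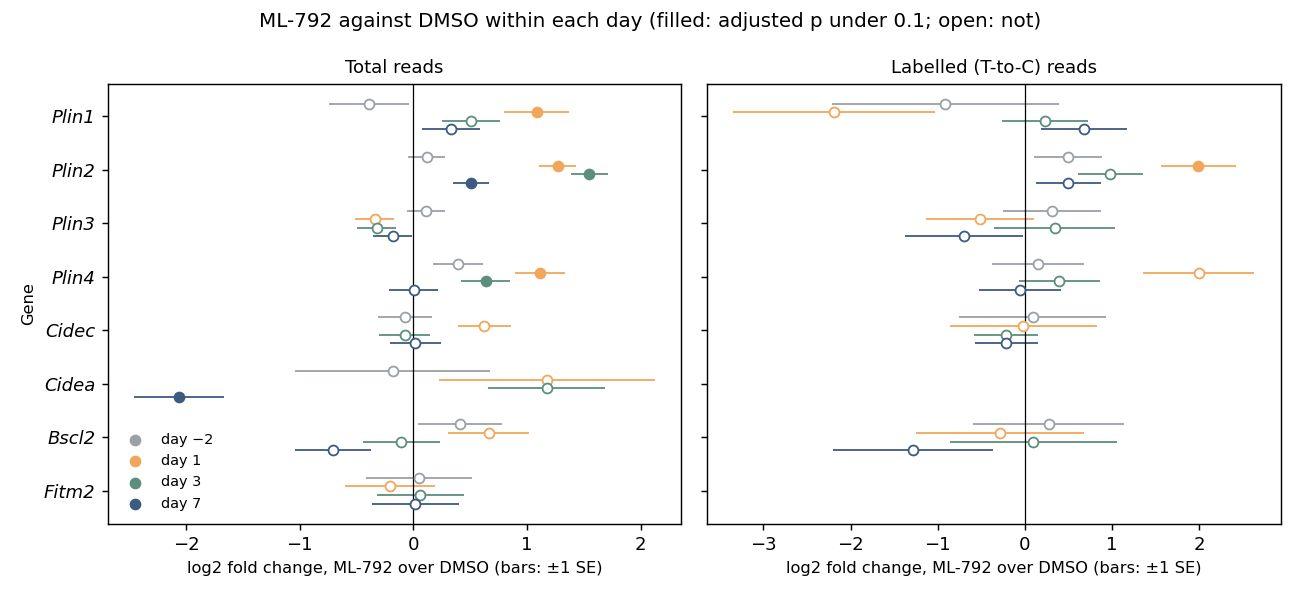
Log2 fold change of ML-792 over DMSO at each day for the 8 genes, with bars of 1 SE, in total reads on the left and labelled reads on the right, where *Cidea* and *Fitm2* were not tested. Filled points passed an adjusted p of 0.1, and among them *Cidea* on day 7 (-2.06) was the only one below 0.

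*Plin2* had the most persistent difference. On day 1 its normalized total reads were 2819.6, 2606 and 3099 in ML-792 and 1069, 1118 and 1347 in DMSO, a 2.41-fold increase (log2 fold change 1.27, SE 0.16, adjusted p = 1.3e-05). On day 3 they were 12279, 10438 and 9167 and 3287, 3269.9 and 4340.5, a 2.93-fold increase (log2 fold change 1.55, SE 0.16, adjusted p = 3.6e-07). On day 7 they were 11341, 9200.0 and 7824 and 6878, 6443 and 6619.8, 1.42-fold (log2 fold change 0.51, SE 0.16, adjusted p = 0.058). The treatments did not overlap at any of these days, and they overlapped on day −2. The calls on days 1 and 3 held when any letter was left out, whereas that on day 7 was lost without letter A (adjusted p = 0.52), without letter C (0.12) or with only the 6 libraries of that day (0.17). In ML-792 the mean of *Plin2* on day 3 was 112% of its own day 7 mean, and in DMSO 54.6%.

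*Plin4* had 2288, 1537 and 2456 normalized total reads in ML-792 and 1004, 741 and 1156 in DMSO on day 1, 2.17-fold more (log2 fold change 1.11, SE 0.22, adjusted p = 0.0023), and the groups did not overlap. On day 3 it had 8451, 6204 and 8139 and 5109, 3920.3 and 5640.2, 1.55-fold (log2 fold change 0.64, SE 0.22, adjusted p = 0.070). Without letter A the adjusted p was 0.18 on day 1 and 0.47 on day 3, and without letter C it was 0.26 on day 3. With only the 6 libraries of day 3 it was 0.11. On day 7 the groups overlapped, with means of 10527 ± 1995 and 10507 ± 485 (SD, n = 3) and a log2 difference of 0.0028 (SE 0.22), and the interaction with day had an adjusted p of 0.12 in edgeR.

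*Plin1* had 119.7, 119 and 146 normalized total reads in ML-792 and 70.2, 46.8 and 64.8 in DMSO on day 1, 2.12-fold more (log2 fold change 1.08, SE 0.28, adjusted p = 0.024). The groups did not overlap, but the adjusted p was 0.21 without letter A and 0.23 without letter C. Both day 1 groups stood at 1.73% and 1.03% of their treatment's day 7 mean, so that this difference came before the main rise of the gene. On day 3 the reads were 7619, 4257 and 7294 against 4715, 3033 and 5758, and on day 7 9431, 5198 and 7600.4 against 6294, 5179 and 6221. The treatments overlapped at both days and did not pass the test (log2 differences 0.51 and 0.33, adjusted p = 0.27 and 0.57), although without letter B the adjusted p was 0.040 and 0.094.

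*Cidea* went from near absence to a lower end point under ML-792. It had 32, 15 and 29 raw reads on day 3 in ML-792 and 10, 4 and 20 in DMSO, overlapping groups (log2 difference 1.17, SE 0.51, adjusted p = 0.18 in edgeR and 0.056 in DESeq2). On day 7 its normalized total reads were 254, 193 and 166 in ML-792 and 738, 959 and 867 in DMSO. All 3 treated libraries lay below all 3 controls, by 4.18-fold (log2 fold change -2.06, SE 0.40, adjusted p = 0.0013). This call held when any letter was left out, with adjusted p of 0.047, 0.0028 and 0.030 without A, B and C. The day 3 mean was 14.7% of the day 7 mean in ML-792 and 1.56% in DMSO.

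Other genes of brown or beige adipocytes moved both ways on day 7. Of the 7 listed, *Ucp1* (0 to 3 reads per library) and *Prdm16* (0 to 9) were too sparse to test. Of the 5 tested, 3 were higher in ML-792 and 2 lower, where 9.74% of all entries were called. The largest differences were those of *Dio2*, the deiodinase that activates thyroid hormone (2 to 20 raw reads per library in ML-792 and 0 to 2 in DMSO, adjusted p = 0.0055), of *Elovl3*, a fatty acid elongase (log2 difference 2.21, adjusted p = 1.1e-04), and of *Cox7a1*, a respiratory chain subunit (-1.91, adjusted p = 0.0012). *Cox8b*, the other one that was lower, had -1.80, adjusted p = 0.0027. The summed normalized reads of the 7 genes were 1552 to 2387 in DMSO and 2782 to 4349.8 in ML-792 on day 7. Their part in the result for *Cidea* was not tested.

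**Figure D4:**
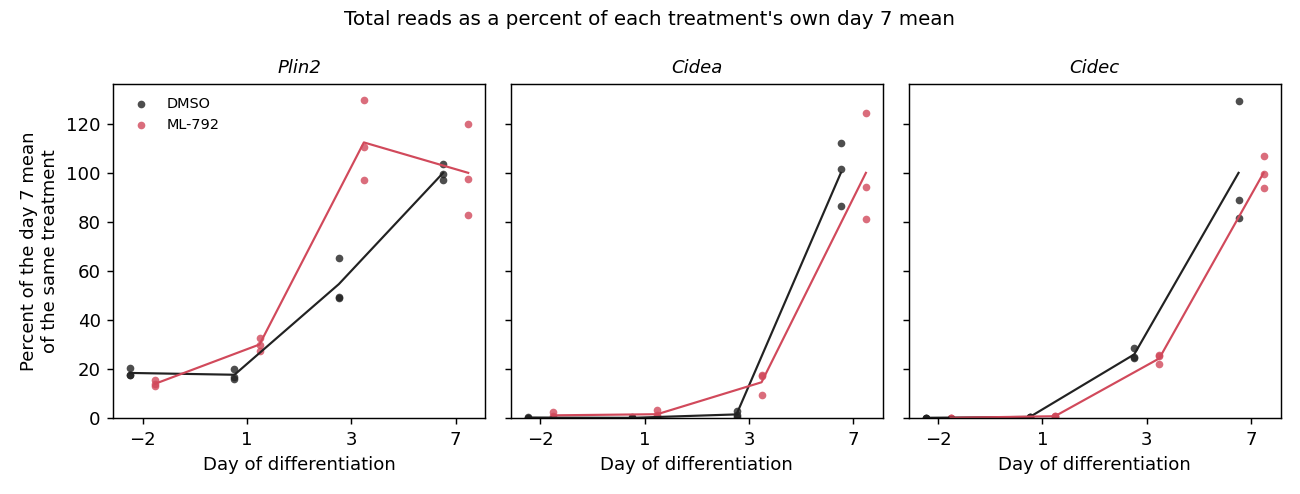
Total reads of *Plin2*, *Cidea* and *Cidec* as a percent of the day 7 mean of the same treatment against the day of differentiation, with a point per library and lines through the means, DMSO in black and ML-792 in red. On day 3 *Plin2* stood at 54.6% in DMSO and 112% in ML-792, and *Cidec* at 26.0% and 24.4%.

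The other 4 genes were not called on any day in this fit of all libraries. *Cidec* had 632, 685 and 523 normalized total reads in ML-792 on day 1 and 437, 385 and 373 in DMSO, which did not overlap, with a log2 difference of 0.62 (SE 0.23, adjusted p = 0.16 in edgeR and 0.089 in DESeq2), and without letter B it was called (0.031). On day 7 it had 79832, 69902 and 74168 against 65659.9, 95534 and 60270.2, a log2 difference of 0.016 (SE 0.23). *Bscl2* had 1305, 716 and 1002 in ML-792 on day 7 and 1779, 1333 and 1830.1 in DMSO, all treated libraries below all controls, with a log2 difference of -0.71 (SE 0.34, adjusted p = 0.27). Without letter B, *Bscl2* was called on day 7 (adjusted p = 0.013) and, as higher, on day 1 (0.046). *Plin3* had 2506, 2092 and 2457 on day 1 against 2801, 3082 and 3053, again without overlap and with a log2 difference of -0.34 (SE 0.17, adjusted p = 0.35). *Fitm2* overlapped at every day, with log2 differences from -0.21 (SE 0.39) on day 1 to 0.061 (SE 0.38) on day 3.

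All 8 genes changed over the course within ML-792. From day −2 to day 7, 7 were higher and *Plin3* was lower (34.9% of entries called). The log2 fold change of *Cidec* was 9.21 (SE 0.33), of *Plin1* 8.76 (SE 0.37) and of *Cidea* 6.45 (SE 0.58), the last on raw reads of 6, 3 and 0 on day −2 and at 7.30 without letter A. *Bscl2* had 3.37 (SE 0.38), *Fitm2* 4.00 (SE 0.45), *Plin4* 3.29 (SE 0.24) and *Plin2* 2.83 (SE 0.17). *Plin3* fell by 0.93 on the log2 scale (SE 0.17, adjusted p = 7.5e-05, and 0.017 without letter A). In labelled reads, *Plin1*, *Plin2*, *Plin4* and *Cidec* were higher and *Plin3* lower (35.1% of entries called, 1.68% as higher and 33.4% as lower). Without letters A and C, 2 and 3 of the 6 tested genes were called. The fall of new *Plin3* RNA (-2.05, adjusted p = 0.0069) shrank to -0.84 with labelled reads scaled by themselves (adjusted p = 0.38).

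In new RNA, ML-792 changed 1 of the 6 tested genes. The median entry shifted by -0.18, -0.28, -0.099 and -0.36 on the log2 scale on days −2, 1, 3 and 7. *Plin2* on day 1 had 25, 27 and 50 labelled reads in ML-792 and 7, 11 and 12 in DMSO, or 27.4, 32.2 and 46.9 against 6.55, 9.89 and 10.1 normalized. The groups did not overlap, and the difference was 3.98-fold (log2 fold change 1.99, SE 0.43, adjusted p = 0.0062), where 0.822% of entries were called, 0.132% as higher and 0.689% as lower. Without letter A the adjusted p was 0.17 and without letter C 0.29. On day 3 *Plin2* had 85, 100 and 106 against 46, 54 and 52 labelled reads, again without overlap (log2 difference 0.98, SE 0.37, adjusted p = 0.29 in edgeR and 0.073 in DESeq2). On day 7 it had 83, 55 and 42 against 40, 48 and 59, which overlapped after normalization (log2 difference 0.50, adjusted p = 0.64). *Plin4* on day 1 had 8, 2 and 26 against 4, 3 and 3, overlapping groups whose log2 difference was 1.99 (SE 0.64, adjusted p = 0.15, and 0.099 without letter B).

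Elsewhere in new RNA no further gene was called. On day −2 edgeR and DESeq2 called none of the 6, none had an unadjusted p under 0.05, and 0% of entries were called. *Plin2* there had 35, 45 and 43 labelled reads in ML-792 and 28, 26 and 21 in DMSO, groups that did not overlap (log2 difference 0.49, SE 0.39, adjusted p = 1.0). On day 3 edgeR called none (0.935% of entries called), 1 had an unadjusted p under 0.05 and DESeq2 called 1, in both cases *Plin2*. On day 1 *Plin1* had 0, 1 and 0 labelled reads in ML-792 and 2, 2 and 3 in DMSO, lower without overlap but with both groups at or under the floor of 3 reads, while its total reads were higher that day (adjusted p of the labelled difference = 0.50). *Plin4* had 51, 44 and 45 against 40, 27 and 42 on day 3, without overlap after normalization (log2 difference 0.40, SE 0.47, adjusted p = 0.86). On day 7 none was called by either tool or had an unadjusted p under 0.05 (0.869% of entries called). *Cidec* had 306, 251 and 256 labelled reads in ML-792 on day 7 and 330, 464 and 313 in DMSO (log2 difference -0.22, SE 0.36), and the sign was positive, 0.039, with labelled reads scaled by themselves. *Bscl2* had 9, 2 and 1 and 10, 11 and 13, without overlap (log2 difference -1.29, SE 0.92, adjusted p = 0.62, with -2.67 without letter A and -0.72 without letter C). *Fitm2*, not tested, had 0, 2 and 0 against 5, 6 and 7, also without overlap. The interaction of day and treatment in labelled reads was called for none of the 6 by edgeR or DESeq2 (0.236% of entries called), and 1, *Plin2*, had an unadjusted p under 0.05.

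Among the enzymes around the droplet, the effect of ML-792 was mixed. The shares of all tested entries called in either direction were 6.45%, 13.0% and 9.74% on days 1, 3 and 7. On day 3, 2 of 12 tested genes of triglyceride synthesis were higher and 4 lower. They were led by *Mogat1* (24 to 42 raw reads per library against 1 to 7 in DMSO, log2 difference 3.02, adjusted p = 0.0037), *Agpat9* (-1.14, adjusted p = 0.0013) and *Gpat4* (0.92, adjusted p = 0.0093). *Mogat1* passed the filter on low counts through its ML-792 libraries, where it is high, so its inclusion favoured a difference on days 3 and 7. Of 9 genes of lipolysis, 2 were higher and 4 lower, led by *Mgll*, the monoglyceride lipase (1.54, adjusted p = 1.1e-04), *Adrb3* (1.45, adjusted p = 0.0038) and *Prkar2b* (-0.71, adjusted p = 0.0044). Of 19 other genes of the droplet surface, 3 were higher and 3 lower. These were led by *Plin5*, the perilipin of oxidative tissues (11 to 26 raw reads per library against 0 to 1, adjusted p = 0.0056), *Tmem159*, whose product LDAF1 binds seipin (log2 difference 2.60, adjusted p = 1.1e-08), and *Hsd17b11* (1.95, adjusted p = 1.2e-07). *Plin5* passed the filter on low counts through these ML-792 libraries of day 3, where it is high, so its inclusion was bound to give a difference. On day 7 the genes of triglyceride synthesis had 1 higher, *Mogat1* (94 to 140 raw reads per library against 9 to 22 in DMSO, log2 difference 2.93, adjusted p = 0.0021), and 2 lower, *Lpin3* (-1.82, adjusted p = 0.098) and *Dgat2* (-0.59, adjusted p = 0.074). Those of lipolysis had 3 higher and 1 lower, led by *Adrb3* (1.49, adjusted p = 0.0011), *Mgll* (0.94, adjusted p = 0.017) and the phosphodiesterase *Pde3b* (-0.76, adjusted p = 0.0091). Those of the droplet surface had 4 higher and 3 lower, led by *Tmem159* (2.06, adjusted p = 5.5e-07), *Hsd17b11* (0.96, adjusted p = 0.0014) and the lipid transfer protein *Vps13c* (0.95, adjusted p = 0.019). On day 1 the changes were fewer: *Dgat2* was higher (1.59, adjusted p = 1.9e-05) and *Gpam* lower (-0.53, adjusted p = 0.099) in triglyceride synthesis, *Mgll* higher (2.46, adjusted p = 1.8e-05) and the lipase *Pnpla2* lower (-0.92, adjusted p = 0.028) in lipolysis. On the droplet surface *G0s2* (2.97, adjusted p = 4.4e-07) and *Tmem159* (0.96, adjusted p = 0.0054) were higher and *Cav1*, the main protein of caveolae, lower (-2.11, adjusted p = 4.0e-08).

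Over the 24 libraries, the genes whose log2 total reads ran most like those of each coat gene were found among 13323 genes by Pearson correlation, as a description of libraries that share the time course. For *Plin1* they were *Dgat2* (r = 0.992), *Mrpl12* (r = 0.990) and *Acsl1* (r = 0.990), where *Dgat2* and *Acsl1* act in triglyceride synthesis and fatty acid activation. For *Cidec* they included *Atl2* (r = 0.990) and *Gnpat* (r = 0.990). Those of *Plin2* were *Arl4a* (r = 0.969), *Mgll* (r = 0.966) and *Cdo1* (r = 0.963). *Plin4* was nearest to *Ltc4s* (r = 0.982), *Pcsk4* (r = 0.982) and *Trim67* (r = 0.980). *Cidea* was nearest to *Aldh1l1* (r = 0.978), *Gstz1* (r = 0.974) and *Apoc3* (r = 0.967). *Bscl2* was nearest to *Parl* (r = 0.984), *Pomt1* (r = 0.978) and *C030006K11Rik* (r = 0.977), and *Fitm2* to *Elac2* (r = 0.979), *Oma1* (r = 0.970) and *Pop5* (r = 0.967). For *Plin3*, the gene that fell, they were *Pknox2* (r = 0.965), *Mras* (r = 0.957) and *Anxa2* (r = 0.949). Among the 8 genes themselves, over the same 24 libraries, r was 0.982 between *Plin1* and *Cidec*, 0.956 between *Plin2* and *Plin4* and -0.804 between *Plin1* and *Plin3*. *Plin2*, *Plin4*, *Cidec* and *Bscl2* each have another RefSeq entry that overlaps the one used and holds nearly the same reads (99.5% to 100.0% of them over the 24 libraries). Entries that do not overlap it, for *Plin2* and *Plin4*, held at most 58 and 139 reads in all, so that 1 entry stood for each gene.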

How the data were processed

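The authors sequenced 3′ mRNA libraries of 24 cultures, called bases with bcl2fastq 2.17.1.14 (submitters' processing notes), aligned reads with SlamDunk to the mm10 genome, and took the 3′UTR intervals for counting from the RefSeq track of UCSC. They deposited raw counts of all reads and of labelled reads (at least 1 T-to-C conversion) per 3′UTR entry, unnormalized, with a length per entry. In both deposited files, 6 library columns matched no sample and were left out. Libraries were grouped by title.

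Counts were analysed in R 4.3.3 with edgeR 4.0.16, limma 3.58.1 and data.table (version 1.17.8): filterByExpr (minimum count 10, minimum total 15), TMM factors, quasi-likelihood F tests and Benjamini-Hochberg adjustment over the 26563 (total) or 10589 (labelled) entries tested. Labelled counts kept the total library sizes, so a general fall in labelling stays in them. DMSO days were fitted on the 12 DMSO libraries (adjusted p under 0.01), ML-792 against DMSO and the interaction on all 24 (under 0.1). Labelled against unlabelled counts were tested as an interaction with day. Normalized reads are counts over effective library size times its mean. Correlations used log2 of normalized reads plus 2. The scripts were tested on simulated data. Alternatives were DESeq2 1.42.0, no filter beyond 10 reads in all, 1 entry per gene, a joint fit of 24 libraries or the 6 of a day, labelled scaling by labelled reads, a replicate block and each letter left out.

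All 8 genes are named in each comparison. From each other list, the 3 called genes with the largest change were named, and any further ones were chosen after their values were seen. The members and lists were chosen with earlier results of these data known. Folds against a group with at most 3 reads in each library are bounds against that floor. The study calls the replicates biological, without saying whether a letter marks a shared culture or day, and p-values measure the spread between these libraries. The floor covers counting error only, since PCR reads without molecular identifiers are not independent molecules. Promoter windows came from RefSeq, and protein sequences were not used here. A gene among those most like *Cidec* is not reported here.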

Additional observations from a re-analysis of the deposited data

Results flagged for a closer look

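The effect of ML-792 on total RNA differed between the 4 days for 2 genes, by the interaction of day and treatment in edgeR's quasi-likelihood test. For *Plin2* the adjusted p was 3.5e-04, with log2 differences of 0.12, 1.27, 1.55 and 0.51 on days −2, 1, 3 and 7. For *Cidea* it was 0.0066, with 1.17 on day 3 and -2.06 on day 7. On days −2 and 1 its libraries had 0 to 7 raw reads, too few to give a difference. Neither difference between days was called without the libraries of letter A.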

How the results depend on the processing

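For the 8 genes, 1249 alternative values were computed over all comparisons. Of these 1126 kept their direction and their side of the threshold, 45 lost a call, 32 gained one and 46 changed sign, of which 0 belonged to a value called with all libraries. Among the values given above, the log2 change with 1 letter left out ran from -1.02 to 0.29 for labelled *Bscl2* (DMSO day 3 against day −2), from -0.11 to 0.29 for total *Cidec* (ML-792 against DMSO, day 7), from -0.46 to 0.31 for total *Fitm2* (DMSO day 7 against day 3), from -0.16 to 0.40 for total *Fitm2* (ML-792 against DMSO, day −2), from -0.046 to 0.13 for total *Fitm2* (ML-792 against DMSO, day 3), from -0.18 to 0.47 for total *Fitm2* (ML-792 against DMSO, day 7) and from -0.18 to 0.16 for total *Plin4* (ML-792 against DMSO, day 7). With labelled reads scaled by themselves it was 0.85 for labelled *Bscl2* (DMSO day 3 against day −2), 0.039 for labelled *Cidec* (ML-792 against DMSO, day 7), 0.25 for labelled *Plin3* (DMSO day 1 against day −2) and 0.069 for labelled *Plin3* (DMSO day 7 against day −2). With 1 entry per gene in the fit it was -0.013 for total *Plin4* (ML-792 against DMSO, day 7), and with the replicate block -0.057 for total *Fitm2* (DMSO day 7 against day 3) and -0.029 for total *Plin4* (ML-792 against DMSO, day 7). The number of genes called in total reads, with 1 letter left out, ran from 0 to 3 for DMSO on day 1 (3 with all libraries), 4 to 7 for day 3 against day 1 (7), 1 to 5 for day 7 against day 3 (5), 1 to 5 for ML-792 on day 1 (3), 1 to 3 on day 3 (2), 1 to 4 on day 7 (2) and 0 to 4 for the interaction (2). In labelled reads it ran from 2 to 4 for DMSO on day 3 (4), 0 to 2 for ML-792 on day 1 (1) and 2 to 5 for ML-792 on day 7 against day −2 (5). The shares of all entries called with a letter left out are not given beside these numbers. DESeq2 called 4 genes for the interaction in total reads, and in labelled reads 1 for day 7 against day 3 (edgeR 0), 2 for ML-792 on day 1 and 1 on day 3 (edgeR 0). Over all tested entries, DESeq2 called 3794, 67, 233 and 181 in these comparisons, against 2563, 26, 87 and 99 by edgeR. Labelled reads scaled by themselves gave 2 for ML-792 on day 1. They also moved called DMSO changes over day −2, to 2.66 for *Plin2* on day 3, 3.11 and 3.36 for *Plin4* and 8.04 and 9.36 for *Cidec* on days 3 and 7. With only the 6 libraries of day 3, 1 gene was called for ML-792. The letters A, B and C are not stated to mark a shared culture or day. Same-letter libraries of different conditions correlated in their deviations from group means by over 0.1 in 68 of 84 pairs (lowest -0.175, highest 0.523), and 22 of 24 libraries correlated best with their own letter. With the replicate block the numbers called were 6 for ML-792 on day 1, 4 on day 3 and 5 for the interaction in total reads, and 2 for ML-792 on day 1 in labelled reads, and all its other numbers were within 1.5 times the reported ones. The block also called more of all tested entries in these comparisons: 3509, 5570 and 5484 in total reads, against 1714, 3462 and 2563 without it. In labelled reads on day 1 it called 256 entries against 87. Single genes called with the block but not in the same edgeR fit without it were, for ML-792 in total reads, *Bscl2* (0.68, adjusted p = 0.0077), *Cidec* (0.62, adjusted p = 0.087) and *Plin3* (-0.35, adjusted p = 0.047) on day 1, *Plin1* (0.50, adjusted p = 0.032) and *Plin3* (-0.31, adjusted p = 0.061) on day 3 and *Bscl2* (-0.73, adjusted p = 0.0010) on day 7. In labelled reads it was *Plin4* on day 1 (1.91, adjusted p = 0.098), and in DMSO total reads *Bscl2* on day 1 (0.78, adjusted p = 0.0056), *Fitm2* for day 3 against day 1 (1.19, adjusted p = 0.0011) and *Plin3* on day 7 (-0.63, adjusted p = 7.5e-04). Some of these were also called by DESeq2 or with a letter left out, as given above. The cause of these differences was not tested. Labelled reads were few, under 30 per library for *Bscl2*, *Cidea* and *Fitm2*, which limits what could be detected in new RNA.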
